A study of Mus musculus with 2 samples.

Results

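Bone morphogenetic protein (BMP) signalling genes and the genes of the ID transcription inhibitors were read out in OCCM-30 cells, with and without mechanical load. The 10 genes described are Bmp2, Bmp4, Bmpr1a, Bambi, Smad6, Smad7, Id1, Id2, Id3 and Id4. They were picked by symbol from the 44792 genes of the deposited count table, and each has 1 entry there. The list was chosen with earlier results of these data known. OCCM-30 is an immortalized mouse line that resembles cementoblasts, the cells that form the mineralized cementum of the tooth root. The first group is OCCM-30 under compressive force (1 library) and the second is OCCM-30 labelled as control (1 library). The culture medium held 10% fetal bovine serum, and serum itself can carry BMP activity. The same treatment sentence, which names the force, is attached to both samples, so the groups were taken from each sample's treatment label. The strength and the length of loading are not stated in the labels.

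BMPs are secreted ligands that bring type I and type II receptors together at the cell surface. The activated receptors phosphorylate SMAD1, SMAD5 and SMAD9, which join SMAD4 and enter the nucleus. Their best known direct target genes are those of the ID proteins and of the inhibitory SMADs, which damp the signal in turn. ID proteins carry a helix-loop-helix fold without a DNA-binding region. They pair with other helix-loop-helix factors, mainly the E proteins, and keep them off DNA. In bone and tooth-root cells BMP signals are known to drive differentiation towards mineralizing cells.

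The compressed library held 24296292 counts and the control library 25049919, with 21227 and 20945 genes detected. With 1 library in each group there is no replicate check, and every difference below is between these libraries, not between conditions. Levels are CPM, counts scaled to a common library size, and each ratio is that of CPM under compression over CPM in control cells. Intervals are 95% counting intervals, which leave out the spread between cultures. Whether a lower value means fewer expressing cells or less RNA in each cell cannot be told apart in bulk RNA. Of the 9 cementoblast and osteoblast markers checked, 6 reached the minimum of 1 CPM in either library. These were Runx2, Sp7, Alpl, Spp1, Col1a1 and Col1a2. Bone sialoprotein (Ibsp), a defining cementoblast marker, had 0 counts in both libraries, so the usual marker of the labelled cell type was not detected. The count of 0 allows a level of at most 0.124 CPM under compression and 0.12 CPM in control cells, taking 3 counts as the limit.

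The promoters of Id2, Id3 and Id4 are shown because Id2 and Id3 were lower in the compressed library, while no difference was detected for Id4. Id4 had few counts, 37 against 35, and the interval of its ratio, 0.668 to 1.78, also covers a decrease. Each run is the 250 bases upstream of the transcript start in RefSeq, build GRCm38.p6, read 5′ to 3′ on the gene's strand. Capitals mark GGCGCC, a GC-rich element that the BMP-activated SMADs bind, and CAGAC or its reverse complement GTCTG, which holds the core SMAD element. Both strands were searched, and no marked stretch overlaps another. The Id2 window is chr12:25096093-25096342 (minus strand) and the Id3 window is chr4:136143572-136143821 (plus strand). The Id4 window, chr13:48260866-48261115 (plus strand), lies within the span of the long noncoding gene A330033J07Rik.
Id2: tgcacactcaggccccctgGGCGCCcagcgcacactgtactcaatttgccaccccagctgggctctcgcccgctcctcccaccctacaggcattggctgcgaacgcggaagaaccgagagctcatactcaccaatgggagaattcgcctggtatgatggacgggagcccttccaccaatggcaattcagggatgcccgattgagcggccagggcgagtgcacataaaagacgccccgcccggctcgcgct
Id3: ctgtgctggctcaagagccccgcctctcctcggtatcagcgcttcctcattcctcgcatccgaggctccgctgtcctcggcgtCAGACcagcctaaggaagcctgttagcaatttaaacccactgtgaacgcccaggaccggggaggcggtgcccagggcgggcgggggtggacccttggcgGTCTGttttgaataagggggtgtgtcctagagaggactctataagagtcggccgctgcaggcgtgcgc
Id4: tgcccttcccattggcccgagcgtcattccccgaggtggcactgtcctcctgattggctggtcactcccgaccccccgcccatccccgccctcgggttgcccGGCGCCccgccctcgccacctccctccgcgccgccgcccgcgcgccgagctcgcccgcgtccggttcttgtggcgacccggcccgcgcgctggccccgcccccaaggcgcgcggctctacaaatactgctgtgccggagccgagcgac

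Id2 and Id4 each held 1 GGCGCC, which begins 231 bases before the Id2 start and 148 bases before the Id4 start. Id3 held 2 copies of the CAGAC element, beginning 167 and 68 bases before its start, and no GGCGCC. Id1, Bmp2, Smad7 and Bambi were not matched in the promoter table. In the 250 bases searched for each of the other matched genes, Smad6 and Bmp4 held neither element. The Smad6 window begins from a transcript start at 64022059, inside the span of the gene, which ends at 64022085. Part of the Smad6 window is therefore not upstream of the gene. The Bmpr1a window held 1 GGCGCC, but it begins from a transcript start at 34502546, inside the annotated span of the gene, and so is not upstream of it. Among all 32851 promoter windows of that length, 9.59% held GGCGCC and 42.2% held CAGAC. GC content was 62.8% in the Id2 and Id3 windows, 75.6% in the Id4 window and 52.4% in the median window. A match of letters is a description and does not show a binding site.

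The ID genes Id1, Id2 and Id3 were lower in the compressed library, together with the inhibitory SMAD genes Smad6 and Smad7. The ligand gene Bmp4 and the receptor gene Bmpr1a were slightly lower. Id4 and Bambi had intervals that included no change, and Bmp2 was too weakly expressed to compare. By the limit of a 2-fold ratio used for a call, 0 of the 9 genes with at least 1 CPM in either library were higher and 0 lower. Over all 14001 genes above that minimum, 3.11% were higher and 1.01% lower by the same rule.

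The genes were chosen with earlier results of these data known, so comparisons of the group with all genes are a description only. A smaller limit of 1.5-fold was chosen in the same way. By this limit, 4 of the 9 were lower, namely Id1, Id2, Id3 and Smad6, and 0 were higher. Of all genes above the minimum, 3.74% were lower and 7.34% higher at this limit. Among the 10817 genes with a mean of at least 5 CPM, where counting error is smaller, 1.86% were lower and 4.54% higher at 1.5-fold. Of the 9 genes, Id4 and Bambi lay below that mean, so this share is not for a like set. The counting interval lay wholly below 1 for 7 of the 9 genes and wholly above 1 for 0, against 28.6% below and 26.3% above among all genes. At this depth an interval off 1 was common, so it says little by itself. The median log2 ratio of the 9 genes was -0.43, and that of all 14001 genes was -0.01.

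Bmp4 and Bmp2 encode the ligands. Bmp4 (chromosome 14 at 46383525 to 46390669, GRCm38) makes a BMP found in many developing tissues, teeth included. It had 729 counts, or 30.0 CPM, in the compressed library, against 860 counts, or 34.3 CPM, in the control library. Its ratio was 0.875 (0.791 to 0.967), inside the 5th to 95th percentile range of all genes, whose log2 limits were -0.55 and 0.77. Bmp2 (chromosome 2 at 133552159 to 133562896), an osteoinductive BMP, had 6 counts against 10 in control cells. At 0.247 CPM against 0.399 CPM it lay below the minimum in both libraries. The interval of its ratio ran between 0.185 and 1.88, so a difference was not detectable at this depth. The noncoding genes Gm15217 and Gm15222 overlap the span of Bmp4. Gm15217 had 0 counts in both libraries, and Gm15222 was not analysed here.

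Bmpr1a (chromosome 14 at 34411061 to 34503336), a type I receptor through which BMP ligands signal, was the listed gene with the most counts. It had 4104 counts, or 169 CPM, under compression and 4852 counts, or 194 CPM, in control cells. The ratio of 0.873 (0.837 to 0.910) differed from that of Bmp4 by less than the counting error. Bambi (chromosome 18 at 3507011 to 3516404) encodes a membrane pseudoreceptor that blocks type I receptors and is itself induced by BMP in several cell types. It had 111 counts against 109, or 4.57 CPM compressed and 4.35 CPM control. Its ratio was 1.05 (0.799 to 1.38), an interval that covers both a modest decrease and a modest increase.

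Smad6 and Smad7 encode the inhibitory SMADs. Smad6 (chromosome 9 at 63953076 to 64022085), which mainly restrains BMP receptors, had 477 counts under compression, or 19.6 CPM, against 761 counts, or 30.4 CPM, in control cells. This was a ratio of 0.647 (0.576 to 0.726). Ranked from the lowest ratio, it was number 506 of the 14001 genes. Smad7 (chromosome 18 at 75367365 to 75395935), which restrains both BMP and TGF-beta receptors, had 1069 counts, or 44.0 CPM, under compression. The control library held 1483 counts of Smad7, or 59.2 CPM. Its ratio of 0.744 (0.687 to 0.805) was closer to 1 than that of Smad6, but the quotient of the Smad6 over the Smad7 ratio, 0.870 (0.755 to 1.00), reached 1. Smad7 overlaps the noncoding gene Gm41776, which was not analysed here.

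Id1 (chromosome 2 at 152736251 to 152737410), the ID gene most often used as a readout of BMP activity, had 1154 counts under compression and 1835 in control cells. Its level was 47.5 CPM under compression and 73.2 CPM in control cells, a ratio of 0.649 (0.602 to 0.699). Id2 (chromosome 12 at 25093799 to 25096092), whose protein also binds the retinoblastoma protein, had 610 counts against 1066. Its CPM of 25.1 under compression and 42.5 in control cells gave a ratio of 0.590 (0.534 to 0.653). Id3 (chromosome 4 at 136143822 to 136145392), a close relative of Id1 that often acts redundantly with it, was the lowest of the group. It had 610 counts, or 25.1 CPM, in the compressed library and 1178 counts, or 47.0 CPM, in the control library. The Id3 ratio was 0.534 (0.484 to 0.590), so its interval reached past the 2-fold limit while the ratio itself did not. Ranked from the lowest, Id3 was number 185, Id2 number 305 and Id1 number 517 of the 14001 genes.

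Id4 (chromosome 13 at 48261116 to 48266028), the ID gene linked to osteoblast over adipocyte differentiation in mouse, did not share this difference. It had 37 counts, or 1.52 CPM, under compression and 35 counts, or 1.40 CPM, in control cells. Its ratio of 1.09 had a wide interval, 0.668 to 1.78, at these low counts. The span of Id4 overlaps A330033J07Rik, which had 0 counts in both libraries. The bar plots of the levels show each library with its own counting interval.

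**Figure D1:**
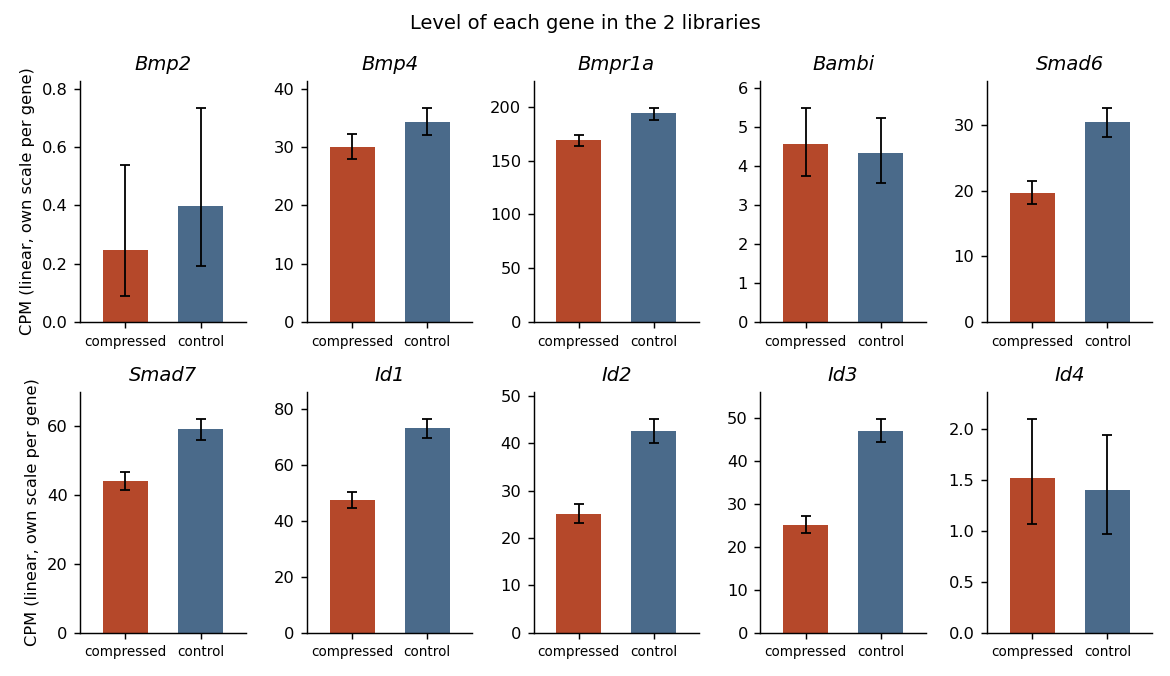
Level of each of the 10 genes in CPM (linear axis starting at 0, a scale of its own for each gene), with the compressed library left of the control library. Error bars are exact 95% Poisson intervals of 1 library and cover counting error only. Id1, Id2, Id3, Smad6, Smad7 and Bmpr1a have separate error bars and are lower under compression, while those of Id4, Bambi, Bmp2 and Bmp4 overlap, although the interval of the Bmp4 ratio lies below 1.

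The genes of the group were then set against each other, since a quotient of ratios does not depend on a scaling factor shared by all genes. A scaling that varies with abundance, such as loess, can move a quotient, and quotients were not recomputed under it. By loess the log2 ratio of Id4 was -0.01 instead of 0.12, and that of Id1 was -0.59 instead of -0.62. Of 36 pairs among the 9 genes above the minimum, 24 had a 95% counting interval off 1 and 12 held 1, with no adjustment for the number of pairs. The share among pairs of other genes was not computed, and the pairs reuse the same 9 genes, so this count says little by itself. Id3 was lower relative to Id4, with a quotient of 0.490 (0.296 to 0.809), and so were Id2, at 0.541 (0.327 to 0.894), and Id1, at 0.595 (0.362 to 0.977). Relative to the receptor gene Bmpr1a, the quotient was 0.612 (0.550 to 0.682) for Id3 and 0.741 (0.655 to 0.838) for Smad6. Id1, Id2, Id3, Smad6 and Smad7 each had a quotient below 1, with its interval, against Bmpr1a and against Bmp4.

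Within the ID genes, Id1 had a higher ratio than Id3, by 1.21 times (1.07 to 1.38). The quotient of Id1 over Id2 was 1.10 (0.969 to 1.25) and that of Id2 over Id3 1.11 (0.959 to 1.27), so these neighbours in the order did not separate beyond counting error. Smad6 stood beside Id1, with an Id1 over Smad6 quotient of 1.00 (0.874 to 1.15). Bmp4 and Bmpr1a did not separate either, at 1.00 (0.899 to 1.12). In order from the lowest ratio, the 9 genes ran Id3, Id2, Smad6, Id1, Smad7, Bmpr1a, Bmp4, Bambi and Id4.

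A spread between cultures would widen all of these intervals, and it was not measured. With an assumed coefficient of variation of 0.1 between cultures, the intervals of Id1, Id2, Id3, Smad6 and Smad7 still lay below 1, the Smad7 interval ending at 0.992. Over all genes above the CPM minimum, 6.21% of intervals lay below 1 and 9.54% above it at that coefficient. Those of Bmp4 (0.652 to 1.17) and Bmpr1a (0.659 to 1.16) then included 1. With an assumed coefficient of 0.2, the interval of Id3 alone lay below 1, between 0.304 and 0.938, and that of Id2 ended at 1.04. The share of all genes below 1 was then 0.936%.

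**Figure D2:**
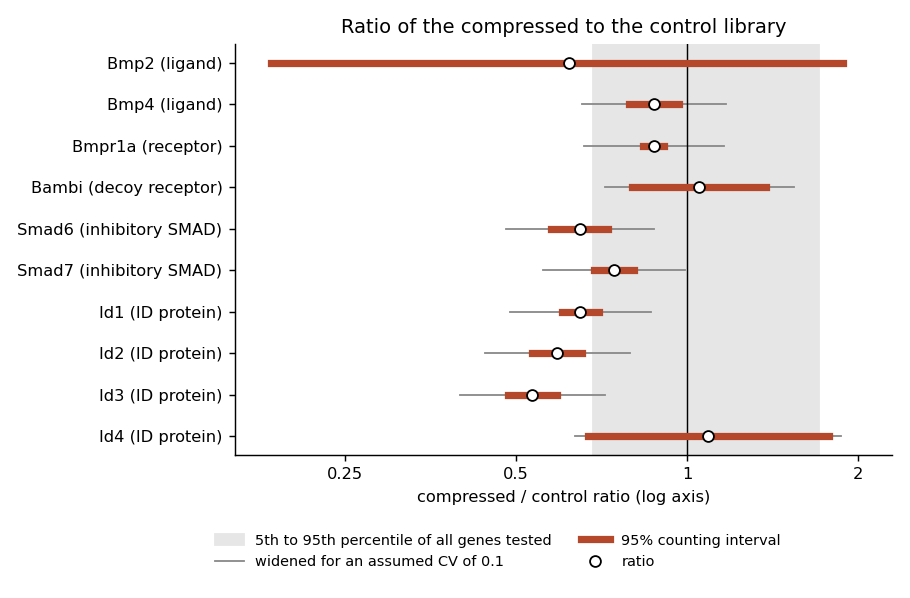
Compressed over control ratio of each gene (log axis), by role from ligands to ID genes. Circles are ratios, thick bars 95% counting intervals, thin bars the same widened for an assumed coefficient of variation (CV) of 0.1, and grey the 5th to 95th percentile of all genes tested. Id1, Id2, Id3, Smad6 and the sparsely counted Bmp2 lie left of the grey band, and Id3 is the lowest of the genes above the CPM minimum, at 0.534.

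**Figure D3:**
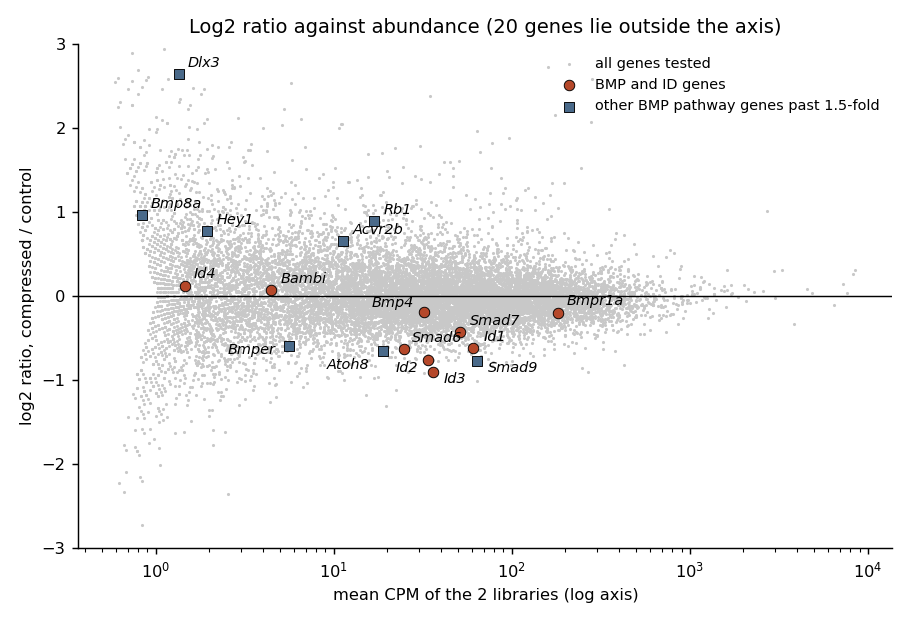
Compressed over control log2 ratio against mean CPM (log axis) for the genes tested. Circles are the BMP and ID genes above the minimum, and squares the 8 genes past 1.5-fold from the further lists, ID protein partners included. 20 genes lie outside the vertical axis. Id3 at -0.90 and Id2 at -0.76 lie on the lower side of the cloud for their abundance, while Id4 and Bambi lie near 0 at low CPM. Of the squares, 3 lie below 0 and 5 above, with Dlx3 the highest at 2.64.

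Other BMP pathway genes and the binding partners of the ID proteins were read from 6 further lists, 72 genes in all. Of these, 48 lay above the CPM minimum. At 1.5-fold, 3 of these 48 were lower and 5 higher, against 3.74% and 7.34% of all genes, and at 2-fold 0 were lower and 1 was higher. Their median log2 ratio was -0.04. The 3 lower genes were Smad9, Atoh8 and Bmper, and the 5 higher were Dlx3, Bmp8a, Rb1, Hey1 and Acvr2b. Dlx3 and Bmp8a passed the CPM minimum in the compressed library only, so the filter favoured a higher call for them.

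Smad9, which encodes a BMP-activated SMAD and is itself induced by BMP, had 1151 counts, or 47.4 CPM, under compression. The control library held 2025 counts, or 80.8 CPM, and the log2 ratio was -0.77. The interval of the ratio of 0.587 was 0.545 to 0.631. Its log2 ratio lay next to that of Id2. Atoh8, a helix-loop-helix gene induced by BMP in endothelial cells, had 356 counts against 576, a ratio of 0.638 (0.557 to 0.729). Bmper, a secreted protein that binds BMPs, had 108 counts against 169, a ratio of 0.659 (0.513 to 0.844).

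Of the 10 listed SMADs and SMAD regulators, all lay above the minimum, 1 was lower at 1.5-fold (Smad9) and 0 were higher, with a median log2 ratio of -0.12. Intervals were below 1 for 6 of them and above 1 for 2, against 28.6% below and 26.3% above among all genes. Smad1 had a ratio of 0.911 (0.839 to 0.990) and Smad5 of 0.884 (0.840 to 0.930), both chosen after their values were seen. These genes encode the SMADs that share the receptor-activated role with SMAD9, and both ratios were closer to 1. The common partner Smad4 had the highest ratio of the list, 1.15 (1.09 to 1.20), with 3423 counts under compression and 3082 in control cells.

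Among 10 other receptors and co-receptors, 7 lay above the minimum, 1 was higher at 1.5-fold and 0 were lower, with a median of -0.10. The higher gene was Acvr2b, a type II receptor of activins and BMPs, with 337 counts against 221, a ratio of 1.57 (1.32 to 1.87). Endoglin (Eng), a co-receptor, had the lowest ratio, 0.756 (0.565 to 1.01), with 85 counts against 116. Bmpr2, the main type II BMP receptor, had 10176 counts under compression and 10157 in control cells, a ratio of 1.03 (1.01 to 1.06). It falls outside the naming rule and was chosen after its values were seen. The type I receptor gene Bmpr1b, also chosen so, had 3 counts against 1.

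Few other BMP ligands were detected. Of 11 listed, 1 lay above the minimum, Bmp8a, with 27 counts under compression and 14 in control cells. At 1.11 CPM under compression and 0.559 CPM in control cells, Bmp8a reached the minimum only through the library where it was higher. Its ratio was 1.99 (1.01 to 4.11), and its reads may not be fully separable from those of its close relative Bmp8b, which had 0 counts in both libraries. The other ligand genes at 0 in both libraries were Bmp3, Bmp5, Bmp10, Gdf2 and Gdf6. Bmp4 was therefore the BMP or GDF ligand gene of these lists with the most counts in either library.

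Secreted antagonists and modulators had 8 of 16 genes above the minimum. At 1.5-fold 1 was lower (Bmper) and 0 were higher, and the median log2 ratio was -0.02. Tsukushi (Tsku), a secreted BMP-binding proteoglycan, had the highest ratio, 1.27 (1.15 to 1.39), with 941 counts against 767. Noggin (Nog), the classical BMP antagonist and a known feedback target, had 29 counts under compression and 45 in control cells. It was chosen after its values were seen, and its ratio of 0.665 (0.402 to 1.08) had an interval that included 1. Chrdl2, Sost and Sostdc1 had 0 counts in both libraries.

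Other genes known to respond to BMP did not share a direction. Of 14 listed, 11 lay above the minimum, 1 was lower at 1.5-fold (Atoh8) and 2 were higher, with a median log2 ratio of -0.12. Of the 11, 7 had a log2 ratio below 0 and 4 above. Intervals were below 1 for 4 of them and above 1 for 3, against 28.6% below and 26.3% above among all genes. Dlx3, a homeobox gene of tooth and bone, had 57 counts under compression and 9 in control cells. Its ratio of 6.54 (3.21 to 15.0) was the call at 2-fold in these lists. At 2.35 CPM under compression and 0.359 CPM in control cells, Dlx3 reached the minimum only through the library where it was higher. Hey1, a Notch and BMP target, had 60 counts against 36, a ratio of 1.72 (1.12 to 2.68). Msx2, a homeobox target of BMP in tooth development, had 0 counts in both libraries.

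The binding partners of the ID proteins were mostly level. All 11 listed genes lay above the minimum, 1 was higher at 1.5-fold and 0 were lower, and the median log2 ratio was 0.01. That gene was Rb1, the retinoblastoma gene, with 534 counts, or 22.0 CPM, under compression and 296 counts, or 11.8 CPM, in control cells. Its ratio was 1.86 (1.61 to 2.15). The lowest was the E protein gene Tcf12, with a ratio of 0.929 (0.888 to 0.972) and 3678 counts against 4085. The other E protein genes, chosen after their values were seen, were Tcf3 with a ratio of 1.14 (1.07 to 1.21) and Tcf4 with a ratio of 1.01 (0.932 to 1.09). The E protein genes therefore differed less between the libraries than Id1, Id2 and Id3.

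**Figure D4:**
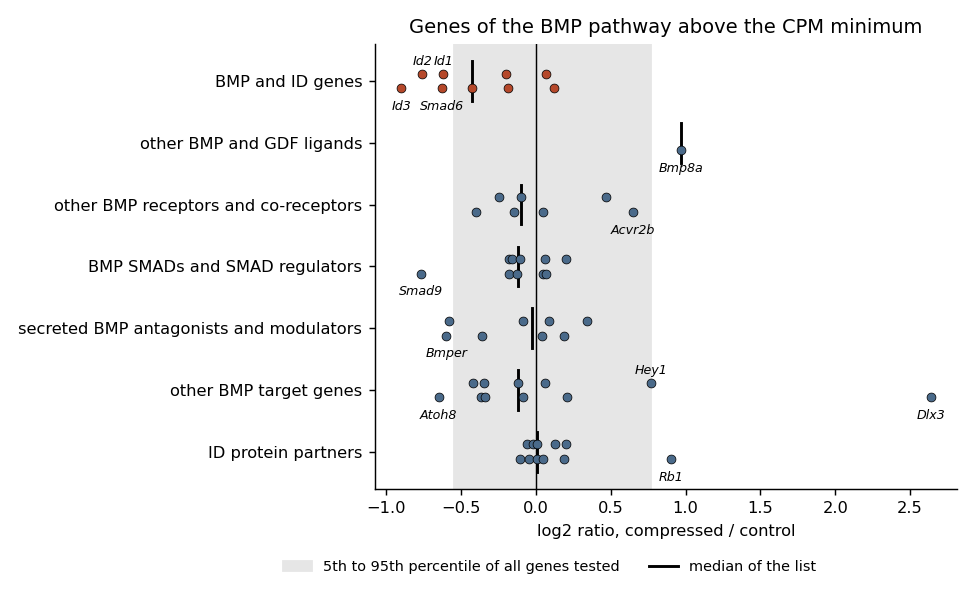
Compressed over control log2 ratio of each gene above the CPM minimum, in the BMP and ID group and 6 further lists, ID protein partners included. Points are genes (those past 1.5-fold are named), black bars list medians, and grey the 5th to 95th percentile of all genes tested. The BMP and ID median of -0.43 lies left of the other medians, which run between -0.12 and 0.01 except for the single ligand gene Bmp8a at 0.97.

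Markers of other cell types were summed in each library, and their part in the differences was not tested. Endothelial cells express Id1 and Id3 strongly. Of the 6 endothelial markers, 2 reached the minimum, Pecam1 with 21 counts against 32 and Vwf with 84 against 70, and their summed level was 4.32 CPM under compression and 4.15 CPM in control cells. Kdr, Tek and Emcn were at 0 in both libraries. Macrophage and osteoclast markers summed to 9.88 CPM under compression and 9.94 CPM in control cells, with 3 of 6 above the minimum (Cd68, Csf1r and Ctsk) and Ptprc and Adgre1 at 0. Skeletal muscle markers summed to 5.64 CPM compressed and 3.99 CPM control, with Des alone above the minimum, at a ratio of 1.48 (1.12 to 1.97), and Myod1, Myf5 and Ckm at 0. Adipocyte markers had 0 of 5 genes above it and summed to 0.329 CPM under compression and 0.599 CPM in control cells, with Lpl at 0. Chondrocyte markers summed to 22.4 CPM under compression and 26.5 CPM in control cells, with Col2a1 and Sox9 above the minimum and Col9a1 at 0. Most of that sum was Sox9, which had 441 counts against 566 and a ratio of 0.804 (0.708 to 0.912).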

How the data were processed

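RNA was extracted with Trizol and sequenced by standard Illumina protocols, per the labels' protocols. The submitters' processing notes name HISAT2, a spliced aligner, and the mouse build GRCm38. The authors deposited whole-number read counts per gene, without normalization. The counter, the strand setting, the annotation version and the handling of multiply aligned reads were not given in the sources used here. Values of genes that overlap others or have near-identical copies are therefore uncertain.

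TMM factors (edgeR 4.0.16, R 4.3.3) over the whole table gave effective library sizes and CPM. Calls used the plain ratio, with its exact conditional binomial (Clopper-Pearson) 95% interval, and medians and ranks used log2 ratios with a prior count of 0.5. Quotients of ratios have exact conditional odds-ratio intervals (scipy 1.17.1). A gene counted as higher or lower with a ratio past 2-fold (or 1.5-fold), an interval off 1, and 1 CPM or more in some library. Reads are not independent molecules, so intervals and floors cover counting error only. No p-value was computed, since 1 library per group leaves no residual degrees of freedom. The 2-fold calling rule was tested on simulated counts that held counting error only. The planted changes were all larger than 2-fold and lay in genes of at least 5 CPM. Changes near 2-fold and weaker genes were therefore not covered. The 1.5-fold rule was not tested so, and spread between cultures was not simulated.

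The members, the lists and the 1.5-fold limit were chosen with earlier results of these data known. Named are the 10 members and, from each further list, genes past 1.5-fold, the highest and lowest ratio, and genes at 0 in both libraries. Not every gene under this rule is reported here. Alternatives were scaling by totals, by upper quartiles, by DESeq2 1.42.0 or by loess, other CPM minimums and prior count, no interval requirement, and widened intervals. Positions and promoters are from RefSeq (GRCm38.p6). The promoter table matched 6 of the 10 members. Adgre1 was matched through an older symbol.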

Additional observations from a re-analysis of the deposited data

How the results depend on the processing

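Total-count scaling, DESeq2 size factors, upper-quartile factors, the loess fit, no CPM minimum, a CPM minimum of 5 and dropping the interval requirement each left the counts of members at 2-fold (0 higher, 0 lower) and at 1.5-fold (0 higher, 4 lower) as reported, and the 4 were Id1, Id2, Id3 and Smad6 each time. With intervals widened for an assumed coefficient of variation of 0.1, 5 members had intervals below 1, against 6.21% of all genes. At 0.2, 1 member, Id3, remained lower at 1.5-fold, and 1 had an interval below 1, against 0.936% of all genes for each count. The median log2 ratio of members was -0.62 at a CPM minimum of 5, which leaves out Id4 and Bambi, and between -0.53 and -0.39 under the other settings. All 50 single-gene log2 ratios recomputed under another scaling or prior count stayed inside the counting interval. Library sizes by totals, upper quartiles and DESeq2 were close to those by TMM, so these scalings could move a ratio little. The log2 ratio of Bmp2 was -1.03 by loess and -0.42 at a prior count of 5, inside a wide interval of -2.43 to 0.91. Counting depth limits Bmp2, Id4 and Bambi most. No paired analysis was possible because each group has 1 library.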
